A study of Homo sapiens with 2 samples.

Results

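The genes described here are 10 that cells switch on when the kinase ERK is active, most of which then restrain the pathway that switched them on. They were chosen by symbol from known families: the ERK phosphatases DUSP4, DUSP5 and DUSP6, the Sprouty proteins SPRY2 and SPRY4, the SPRED proteins SPRED1 and SPRED2, the transcription factors ETV4 and ETV5, and PHLDA1. All 10 were found among the 16424 listed genes, and all 10 were among the 13724 genes with a mean of at least 1 CPM (tags scaled to the size of the library) that were tested. The data come from cap analysis of gene expression (CAGE), which counts short tags read from the 5′ ends of capped RNAs. It was applied to PLC/PRF/5, a human hepatoma cell line, to find signals that respond to M2BPGi, the form of Mac-2-binding protein that carries sugars bound by the lectin of Wisteria floribunda. The non-treated group (0 µg/ml) and the group given 3 µg/ml M2BPGi for 6 h had 1 library each, from cells that were not yet fully confluent when the medium was changed. No difference between the groups therefore has a replicate check, and the conditions could not be tested against each other. The non-treated library held 24040209 tags and the M2BPGi-treated library 24862941 tags.

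ERK is the last kinase of a cascade that runs from growth factor receptors through Ras, RAF and MEK. Active ERK turns on genes whose products act back on the cascade: phosphatases strip the phosphates from ERK, while Sprouty and SPRED proteins act upstream at the level of Ras. The ETV factors and PHLDA1 are also transcribed when ERK is active, so the mRNAs of these genes are widely used as a readout of the pathway, and in liver cancer cells the cascade is fed by receptors such as FGFR4, EGFR and MET.

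The cells carried the markers of hepatoma cells. All 14 hepatocyte and hepatoma markers were above 0, with a sum of 5593 CPM in the non-treated and 4888 CPM in the M2BPGi-treated library, and the most abundant was the keratin KRT18 with 1249.78 and 1592 CPM. Of the blood and Kupffer cell markers, PTPRC and CSF1R had 0 tags in both libraries, which allows up to 0.125 and 0.121 CPM. LYZ was the most abundant marker of that list, with 32.1 and 29.2 CPM, and CD68 had 21.2 and 20.5 CPM, and the list, of which 4 of 8 markers were analysed and 2 were above 0, summed to 53.2 and 49.7 CPM. The stellate cell and fibroblast markers, of which 2 of 8 were analysed and both were above 0, summed to 5.2 and 4.18 CPM, led by COL3A1 with 4.53 and 3.42 CPM. The bile duct markers, of which 3 of 4 were analysed and all of these were above 0, summed to 177 and 167 CPM, led by KRT19 with 164 and 156 CPM, and the 5 endothelial markers of the list were not analysed here. The hepatoma markers were mostly lower in the M2BPGi-treated library, with 10 of 14 lower, 4 higher and a median log2 ratio of -0.29. KRT18 was among the higher ones, and FGB, with 950 and 623 CPM, was lower by 1.5-fold or more. The part of the hepatoma markers in the values below was not tested. In such bulk libraries, fewer cells with a transcript and less of it per cell cannot be told apart.

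The 10 genes spanned a wide range of levels. A CAGE tag marks 1 capped end whatever the length of the RNA, so levels in CPM were set side by side between genes without a correction for length. Whether tags of all genes were captured and placed equally well was not tested. ETV4 was the most abundant in the non-treated library with 85.8 CPM, followed by DUSP4 with 56.7 CPM and DUSP6 with 46.9 CPM. PHLDA1, ETV5 and SPRY2 formed a middle group between 30.5 and 34.5 CPM, in which neighbours did not differ beyond their counting error. The ends of this group, PHLDA1 with 830 tags and SPRY2 with 733 tags, were not compared with each other. SPRY4 and SPRED2 came next with 26.3 and 26.1 CPM, a ratio of 1.01 with a 95% counting interval of 0.901 to 1.13. DUSP5 had 11.7 CPM, and SPRED1 was the lowest with 3.70 CPM, or 89 tags. In the M2BPGi-treated library, ETV4 was again highest and SPRED1 again lowest. DUSP6 was now level with PHLDA1 within the counting error, at a ratio of 1.07 (0.98 to 1.17), where it had been 1.36 times as high in the non-treated library (1.24 to 1.49). SPRED2 and SPRY4 stood in the reverse order, but their ratio of 1.04 (0.93 to 1.16) did not separate them.

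**Figure D1:**
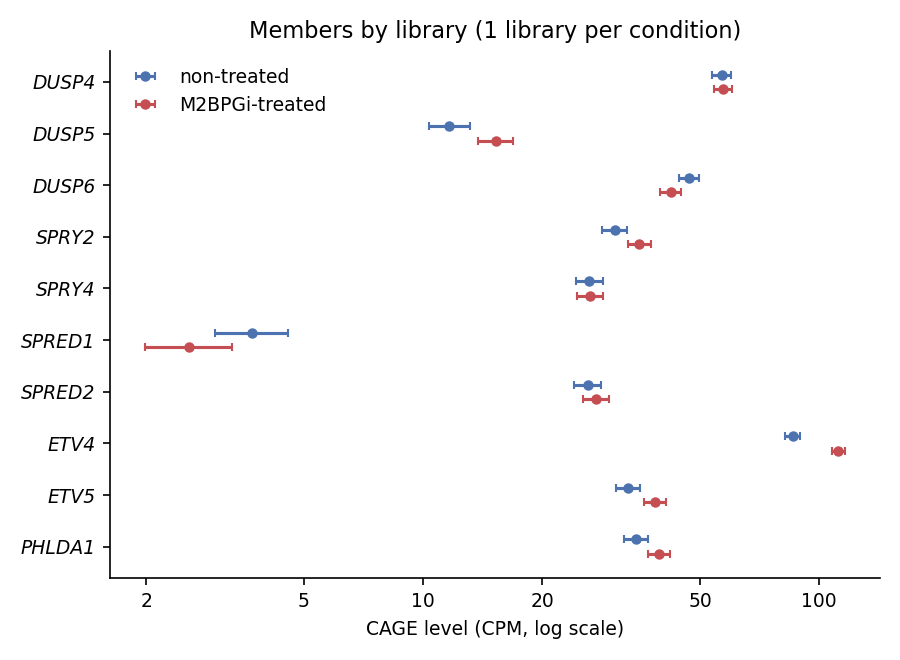
Level of each of the 10 genes in CPM on a log axis, in the non-treated library (blue) and the M2BPGi-treated library (red), 1 library each. Bars are 95% exact Poisson intervals and cover counting error only; ETV4 had 85.8 and 112 CPM and SPRED1 3.70 and 2.57 CPM.

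The differences between the libraries were small for all 10 genes. The log2 ratio (M2BPGi-treated over non-treated, with 1 CPM added to both values) reached a 1.5-fold difference upward in 0 and downward in 0 of the 10 genes. Over all 13724 genes, 1.6% were higher by 1.5-fold or more and 4.04% were lower by as much. These were 219 and 555 genes, against 298 and 412 after rescaling to a median of 0, 296 and 426 after scaling by a trimmed mean, and 320 and 375 relative to genes of like expression. The addition of 1 CPM understates the change of low genes, so each gene also has a 95% Clopper-Pearson interval of the log2 ratio of its tags with nothing added. This interval lay above 0 for 5 genes, DUSP5, SPRY2, ETV4, ETV5 and PHLDA1, and below 0 for DUSP6 and SPRED1, while that of DUSP4, SPRY4 and SPRED2 held 0. Among all genes tested, 22.8% had an interval above 0 and 31.5% below 0. Such intervals cover counting error only and compare the 2 libraries, not the conditions. The median log2 ratio of the 10 genes was 0.13, with 8 higher and 2 lower, against -0.05 over all genes tested, of which 42.9% were higher. The split of 8 and 2 was the same after rescaling so that the median of all genes was 0, after scaling by a trimmed mean, and when the ratios were taken relative to genes of like expression or like transcript length, with medians of the 10 genes between 0.17 and 0.20.

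The 2 intervals below 0 were less firm than the 5 above at the 99% level, the only one of these settings that did not shift the ratios. With either rescaling of the libraries, both DUSP6 and SPRED1 had intervals that held 0, and the same was found with 99% intervals and relative to genes of like transcript length. Either rescaling raised all log2 ratios by 0.05. That of SPRED1 went from -0.40 to -0.34 and -0.35, and its wide interval then reached 0, while that of DUSP6 went from -0.15 to -0.10. Relative to genes of like expression, DUSP6 was still below 0 and SPRED1 was not. The same 5 genes were above 0 in each of these settings, and DUSP4 joined them relative to genes of like length. Apart from the 99% level, each setting raised the ratios of the members, except that of ETV4 relative to genes of like expression. Such upward shifts could only weaken intervals below 0 and keep those above 0, so they do not compare the firmness of the 2 kinds. With the libraries as deposited 71.4% of the 7 called members were above 0, and with either rescaling 100% of 5, because the intervals below 0 no longer counted while the number above 0 stayed at 5. Over all genes tested, the share above 0 rose with the same shift, from 42.0% of the called genes to 51.6% or 51.0%. These shifts of the intervals, other than the 99% level, were chosen after the data were seen.

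**Figure D2:**
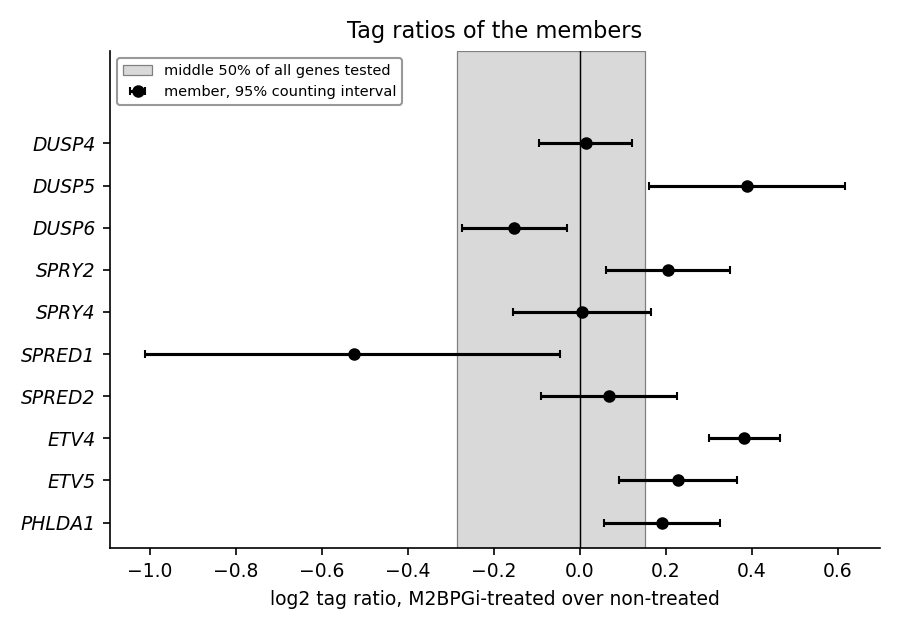
Log2 ratio of tags, M2BPGi-treated over non-treated, for the 10 genes, with nothing added. Bars are 95% Clopper-Pearson intervals for counting error only, and the grey band spans the quartiles of all 13724 genes tested, -0.28 to 0.15; DUSP5, SPRY2, ETV4, ETV5 and PHLDA1 lie above 0.

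DUSP4, DUSP5 and DUSP6 remove phosphates from MAP kinases, but they act in different places. DUSP6 is a cytoplasmic phosphatase selective for ERK, DUSP5 is its nuclear counterpart, and DUSP4 is a nuclear phosphatase that also acts on other MAP kinases. DUSP4 (ENSG00000120875) had 56.7 CPM in the non-treated and 57.3 CPM in the M2BPGi-treated library. Its log2 ratio was 0.01, with a counting interval of -0.09 to 0.12, so that a difference was not detectable at this depth. DUSP5 (ENSG00000138166) had 11.7 CPM in the non-treated and 15.2 CPM in the M2BPGi-treated library. It was higher in the M2BPGi-treated library, with a log2 ratio of 0.36 and an interval of 0.16 to 0.62. DUSP6 (ENSG00000139318) went the other way, with 46.9 CPM in the non-treated and 42.2 CPM in the M2BPGi-treated library. Its log2 ratio was -0.15, with an interval of -0.27 to -0.03, and it was higher than the ratio of 37.1% of all genes tested.

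The ERK phosphatases differed among themselves while their sum was level. Together they had 115 CPM in both libraries, and the log2 ratio of their summed tags was -0.01 with an interval of -0.08 to 0.07. The log2 tag ratio of DUSP5 exceeded that of DUSP6 by 0.54, with an interval of 0.29 to 0.79. DUSP5 also exceeded DUSP4, by 0.37 (0.13 to 0.62). Between DUSP4 and DUSP6 the difference was 0.17, and its interval of 0.00 to 0.33 only just left out 0. As a share of the tags of these phosphatases, nuclear DUSP5 took 10.1% in the non-treated library (95% Clopper-Pearson interval 9.01 to 11.3%) and 13.3% in the M2BPGi-treated library (12.1 to 14.6%). Cytoplasmic DUSP6 took 40.7% (38.8 to 42.5%) and 36.8% (35.0 to 38.6%). The share of DUSP4 was 49.2% and 49.9%, with intervals that overlapped.

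SPRY2 and SPRY4 are Sprouty proteins, which are phosphorylated at growth factor receptors and curb the signal from them to ERK. SPRY2 (ENSG00000136158) had 30.5 CPM in the non-treated and 35.15 CPM in the M2BPGi-treated library. It was higher in the M2BPGi-treated library, with a log2 ratio of 0.20 and an interval of 0.06 to 0.35. SPRY4 (ENSG00000187678) had 26.3 and 26.4 CPM, and its interval of -0.15 to 0.17 held 0. Although SPRY2 passed 0 and SPRY4 did not, the difference between their log2 tag ratios, 0.20, had an interval of -0.01 to 0.41 and so did not separate them. The summed Sprouty tags were 56.8 CPM in the non-treated and 61.5 CPM in the M2BPGi-treated library, a log2 ratio of 0.12 (0.01 to 0.22).

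SPRED1 and SPRED2 are membrane proteins related to Sprouty, and SPRED1 brings the Ras inactivator neurofibromin to the membrane. SPRED1 (ENSG00000166068) had 3.70 CPM, or 89 tags, in the non-treated library and 2.57 CPM, or 64 tags, in the M2BPGi-treated library. It was lower in the M2BPGi-treated library, and the few tags left a wide interval of -1.01 to -0.04 around a log2 tag ratio of -0.52. With 1 CPM added the log2 ratio was -0.40. SPRED2 (ENSG00000198369) had 26.1 CPM in the non-treated and 27.4 CPM in the M2BPGi-treated library, with an interval of -0.09 to 0.23. The log2 tag ratio of SPRED2 exceeded that of SPRED1 by 0.59, with an interval of 0.10 to 1.08. SPRED1 supplied 12.4% of the SPRED tags in the non-treated library (10.1 to 15.1%) and 8.60% in the M2BPGi-treated library (6.69 to 10.9%), and the sum of the pair was 29.8 and 29.9 CPM.

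ETV4 and ETV5 are ETS transcription factors of the PEA3 group, which carry the response to FGF and ERK signals to further genes. ETV4 (ENSG00000175832) had 85.8 CPM in the non-treated and 112 CPM in the M2BPGi-treated library, from 2062 and 2780 tags. It was higher in the M2BPGi-treated library by 1.30-fold in tags (1.23 to 1.38), and its log2 ratio of 0.38 with 1 CPM added was higher than that of 93.7% of all genes tested. With nothing added, the log2 tag ratios of ETV4 and DUSP5 were alike, at 0.38 and 0.39. ETV5 (ENSG00000244405) had 32.9 CPM in the non-treated and 38.6 CPM in the M2BPGi-treated library. It was higher as well, with a log2 ratio of 0.22 and an interval of 0.09 to 0.37. The ratio of ETV4 exceeded that of ETV5 by 0.15, but the interval of this difference, -0.01 to 0.31, held 0. ETV4 made up 72.2% of the tags of the pair in the non-treated library (70.6 to 73.9%) and 74.3% in the M2BPGi-treated library (72.9 to 75.7%).

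PHLDA1 encodes a protein with a pleckstrin homology-like domain whose mRNA follows ERK activity. PHLDA1 (ENSG00000139289) had 34.5 CPM in the non-treated and 39.4 CPM in the M2BPGi-treated library. It was higher in the M2BPGi-treated library, with a log2 ratio of 0.19 and an interval of 0.06 to 0.33. Relative to the 200 genes nearest in transcript length, the log2 ratio of PHLDA1 was 0.33. Its longest annotated transcript, of 8069 nt, is the longest of the 10 genes, and long transcripts had lower ratios in general: from the shortest to the longest of 4 groups of equal size made from all genes tested, the median log2 ratio was 0.03, -0.03, -0.07 and -0.12. The part of transcript length in the values of the 10 genes was not tested beyond this comparison.

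ETV4 weighed heavily in the total. The 10 genes summed to 355 CPM in the non-treated and 396 CPM in the M2BPGi-treated library, a log2 ratio of 0.16 (0.12 to 0.20). Without ETV4 the other 9 genes summed to 269 and 284 CPM, and the log2 ratio was 0.08 (0.03 to 0.13). The ETV pair alone had 119 and 150.42 CPM, a log2 ratio of 0.34 (0.27 to 0.41), whereas the phosphatase and SPRED sums did not differ beyond counting error.

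**Figure D3:**
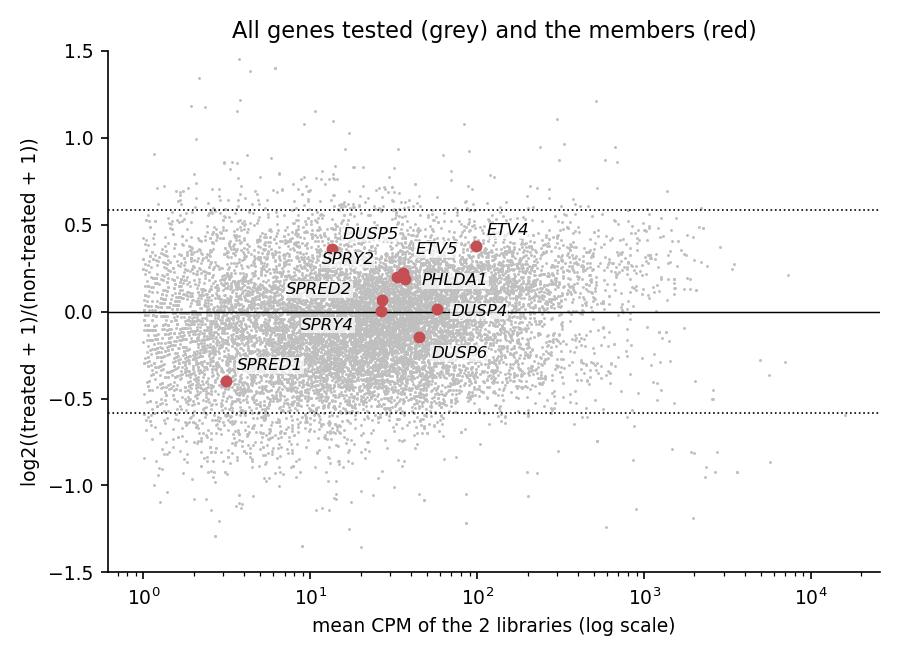
Log2 ratio of CPM, M2BPGi-treated over non-treated with 1 CPM added, against the mean CPM of the 2 libraries on a log axis, for the 13724 genes tested (grey) and the 10 genes (red). Dotted lines mark 1.5-fold; all 10 lie between them, and 37 grey genes beyond a log2 ratio of 1.5 in either direction are not drawn.

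Few rivals for the tags of the 10 genes were found among annotated transcripts. In the GENCODE v29 annotation of GRCh38, which is not the hg19 build named for the mapping, the 10 genes lie on 9 chromosomes, and DUSP6 and PHLDA1, both on chromosome 12, are 13.3 Mb apart. For 0 of the 10 did the first 500 nt of a transcript match another gene elsewhere with 95% identity or more over a stretch of 100 nt or longer. CAGE tags are short, and a shorter match or a copy outside annotated transcripts would not have been seen. Of the overlaps with listed genes, ETV4 overlaps DHX8 on the other strand, which had 25.8 and 29.1 CPM. SPRY4 overlaps the antisense gene AC005592.2, with 10.4 and 8.0 CPM. PHLDA1 overlaps RP11-290L1.3 and RP11-290L1.2, each below 1 CPM in both libraries, and ETV5 overlaps DGKG on its own strand, with 0.04 and 0 CPM. On their own strand, SPRED2 also overlaps AC012370.1 and ETV5 also overlaps RF00017, and tags of these were not analysed here. The deposited values name the strand of each gene, but how tags were assigned by strand was not given in the sources used here.

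Since CAGE tags mark transcript starts, the sequences around annotated starts of these genes are given beside the values. RefSeq windows (GRCh38.p14) from 250 bases before to 50 after an annotated start were analysed for 6 of the 10: DUSP6, SPRY2, SPRY4, SPRED1, SPRED2 and PHLDA1. Windows of the other members were not analysed here. Positions of the tags are not part of the values used here, so the start used in these cells was not determined. The windows of PHLDA1 and SPRY2, whose tag ratios lay above 0, are shown with those of DUSP6 and SPRED1, which lay below 0. They are PHLDA1 at chr12:76031727-76032026 on the minus strand, SPRY2 at chr13:80341077-80341376 on the minus strand (the outermost of 3 windows), DUSP6 at chr12:89352452-89352751 on the minus strand and SPRED1 at chr15:38252586-38252885 on the plus strand. Capitals mark matches to the motifs named below.
PHLDA1: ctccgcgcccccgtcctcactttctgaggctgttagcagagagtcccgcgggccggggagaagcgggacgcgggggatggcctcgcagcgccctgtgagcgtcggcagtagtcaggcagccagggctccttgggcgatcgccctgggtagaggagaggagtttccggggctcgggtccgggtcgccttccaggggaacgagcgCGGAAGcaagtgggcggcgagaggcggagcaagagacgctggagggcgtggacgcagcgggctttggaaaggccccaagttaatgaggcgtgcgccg
SPRY2: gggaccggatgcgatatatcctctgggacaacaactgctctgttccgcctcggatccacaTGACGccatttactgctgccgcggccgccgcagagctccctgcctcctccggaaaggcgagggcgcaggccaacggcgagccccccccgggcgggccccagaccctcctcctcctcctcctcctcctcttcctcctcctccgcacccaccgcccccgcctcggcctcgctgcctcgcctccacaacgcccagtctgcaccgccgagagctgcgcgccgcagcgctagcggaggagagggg
DUSP6: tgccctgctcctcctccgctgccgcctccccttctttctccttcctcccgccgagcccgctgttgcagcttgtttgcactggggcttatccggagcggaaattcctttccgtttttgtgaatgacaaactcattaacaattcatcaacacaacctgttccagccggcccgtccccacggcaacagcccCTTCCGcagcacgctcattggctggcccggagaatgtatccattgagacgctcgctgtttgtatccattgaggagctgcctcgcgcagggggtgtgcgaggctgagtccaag
SPRED1: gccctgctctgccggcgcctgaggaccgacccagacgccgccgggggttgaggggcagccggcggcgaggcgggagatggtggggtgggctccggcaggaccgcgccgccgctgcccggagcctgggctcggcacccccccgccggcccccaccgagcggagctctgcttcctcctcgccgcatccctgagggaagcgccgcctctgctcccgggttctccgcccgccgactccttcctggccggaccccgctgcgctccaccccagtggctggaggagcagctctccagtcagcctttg

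These windows were searched on both strands for an ETS motif (CGGAAG), an AP-1 motif (TGANTCA), a short cyclic AMP response element, or CRE (TGACG), a motif of the repressor CIC (TGAATGNA) and a TATA motif (TATAAA). The shares over all windows and over those of the genes tested count inner windows too. They are therefore not like for like with the outermost windows of the members. In the outermost window of each gene, the ETS motif was found in DUSP6, PHLDA1 and SPRED2, 3 of 6, against 19.4% of 34943 RefSeq windows and 31.2% of those of the genes tested. In DUSP6 it begins 62 bases and in PHLDA1 47 bases before the start, so it is present both in a gene with an interval below 0 and in 1 with an interval above 0. The CRE letters were found in SPRY2, SPRY4 and SPRED2, also 3 of 6, against 24.5% of all windows and 32.6% of those of the genes tested. In SPRY2 they begin 190 bases before the start. The AP-1, CIC and TATA letters were in 0 of these 6 windows, against 7.72, 3.85 and 11.6% of all windows and 4.80, 2.36 and 5.90% of those of the genes tested. The inner window of SPRED2, at chr2:65366729-65367028, holds the TATA letters and 2 matches to the AP-1 letters. The 6 outermost windows had a median of 67.2% G and C, and SPRED1 had 76.3%. The median was 58.7% over all windows and 65.0% over those of the genes tested, with inner windows counted in both. The inner windows of the members had less than their outermost ones, with 39.3% in SPRED2 and 63.0 and 44.7% in SPRY2. Whether the members differ from other genes in G and C was not tested. A match to a motif is a description of the sequence and does not show that a factor binds there.

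Upstream of ERK, the other genes of the pathway were described from lists by role. Of 10 receptors tested, 10 were lower in the M2BPGi-treated library, with a median log2 ratio of -0.26 and 6 intervals below 0. Over all 13724 genes tested, 7826 were lower and 31.5% had an interval below 0. The receptors were 8 lower and 2 higher with either rescaling (median -0.20 and -0.21) and relative to genes of like length (median -0.13). Relative to genes of like expression they were 6 lower and 4 higher (median -0.25). ERBB4, a receptor for neuregulins, was the lowest, with 16.9 and 9.73 CPM and a log2 ratio of -0.73, and no other receptor was lower by 1.5-fold or more. ERBB2 followed with 41.7 and 30.4 CPM, whereas FGFR3 (10.4 and 10.1 CPM) and IGF1R (21.2 and 21.0 CPM) had intervals that held 0. Of 7 ligands and the proteases that release them, 4 were higher and 3 lower, with a median of 0.23, or 0.36 relative to genes of like expression, and with PDGFA at 4.49 and 6.15 CPM, PDGFB at 5.87 and 7.04 CPM, and the sheddases ADAM10 at 175 and 139.69 CPM and ADAM17 at 41.6 and 30.2 CPM.

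Between the receptors and ERK, adaptors and Ras proteins had a median log2 ratio of 0.15, with 10 of 14 higher. RRAS2, a relative of the classical Ras proteins, had 32.5 CPM in the non-treated and 42.4 CPM in the M2BPGi-treated library. The adaptor SHC1 had 90.02 and 74.7 CPM and the Ras activator SOS1 28.5 and 24.6 CPM. In the kinase cascade itself, 8 of 11 genes were higher, with a median of 0.11, which was 0.05 relative to genes of like expression. MAPK3, which encodes ERK1, had 46.4 and 56.8 CPM. BRAF had 47.9 and 40.6 CPM, and the scaffold IQGAP1 263 and 182 CPM.

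**Figure D4:**
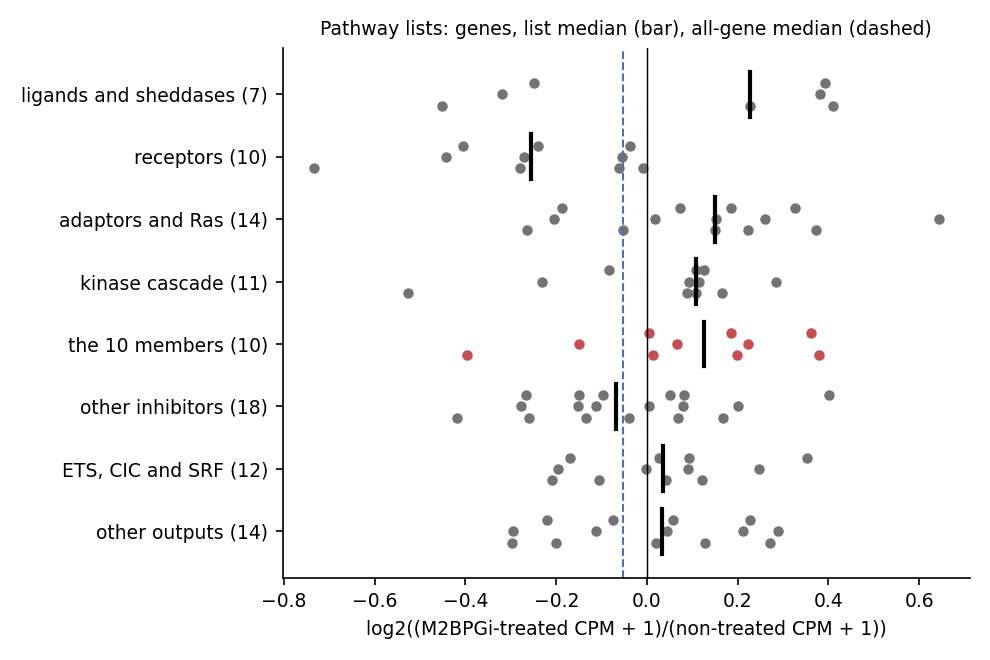
Log2 ratio of CPM, M2BPGi-treated over non-treated with 1 CPM added, for each gene tested in 8 lists of the pathway, with the number of genes in brackets. Black bars are list medians, from -0.26 for the receptors to 0.23 for the ligands, and the dashed line is the median of all genes, -0.05; the 10 genes (red) have a median of 0.13.

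Beside the 10 genes, other inhibitors and other targets of the pathway gave medians nearer to 0. The 18 other inhibitors had a median log2 ratio of -0.07, with 8 higher and 10 lower. Of these, 4 had an interval above 0 and 4 below 0, against 22.8% and 31.5% of all genes tested. With either rescaling the other inhibitors were 9 higher and 9 lower, with a median of -0.02, and relative to genes of like length the median was 0.00. Among those with a mean of at least 5 CPM, the phosphatases DUSP3 (44.1 and 49.6 CPM) and DUSP14 (153 and 162 CPM) had the highest ratios, and the Ras inactivators NF1 (10.4 and 7.56 CPM) and RASA2 (12.9 and 10.5 CPM) the lowest. Over 12 genes of ETS factors, CIC and SRF, the median was 0.03, with 7 higher and 5 lower, and between 0.08 and 0.13 with the rescalings and relative to genes of like expression or length. ELK3 had 16.2 and 21.0 CPM and the repressor ERF 115 and 136.95 CPM, while ELK4 had 24.5 and 21.1 CPM and CIC, a repressor of ETV4 and ETV5, 53.4 and 46.5 CPM, a log2 ratio of -0.20, which was -0.05 relative to genes of like length. The 14 other outputs had a median of 0.03, with 8 higher and 6 lower, or 7 and 7 with medians of 0.03 and 0.01 relative to genes of like expression and like length. With either rescaling their median was 0.08. With the same minimum of 5 CPM, UPP1 (163 and 199.78 CPM) and the cyclin CCND1 (93.0 and 112 CPM) had the highest ratios, and the receptor EPHA2 (35.2 and 28.4 CPM) and IER2 (5.70 and 4.75 CPM) the lowest. Among the genes named in these lists, ADAM17, BRAF, DUSP3, ERF, MAPK3, NF1, RRAS2 and SHC1 match another gene in the first 500 nt and may share tags with it. DUSP14 could not be searched, and the markers KRT18 and KRT19 also have such matches.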

How the data were processed

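The CAGE library of non-treated PLC/PRF/5 cells was compared with that of M2BPGi-treated cells. The authors mapped tags with BWA after removal of ribosomal sequences and of reads with ambiguous bases, grouped 5′ ends with CAGEr and deposited CPM per gene, rounded to 2 decimals. The submitters' processing notes name hg19, BWA and HISAT2, whereas the methods name a mouse genome; the gene identifiers are human. The treatment of tags with several possible places was not given in the sources used here. Low values lie on steps of 0.0416 and 0.0402 CPM, the worth of 1 tag, and 100% of the values above 0 fell on such a step within 0.005 CPM, which gave the tag numbers. Of the tags, 94.1% and 94.4% were on listed genes. A check of the unit did not accept whole reads as recovered, so the values were kept as CPM and no count model was fitted. The tag numbers served only for intervals, which cover counting error.

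Log2 ratios had a pseudocount of 1 CPM and a filter of a mean of at least 1 CPM. Intervals of differences between 2 genes used the normal approximation to the log ratio of tags. Transcript lengths were the longest in GENCODE v29 (96.7% of the genes tested), and near-identical copies were searched with BLAST+ 2.17.0. Python 3.11.15 and scipy 1.17.1 were used, and the code was tested on simulated data. The 10 genes and all lists were chosen with earlier results of these data known. Named besides the 10 were, per pathway list, every gene at least 1.5-fold different. So were the 2 highest and 2 lowest log2 ratios of each such list with a mean of at least 5 CPM. The most abundant marker per cell type list was also named, and CD68, PTPRC, CSF1R and FGB were chosen with their values in view. Some genes that meet the rule for naming are not reported here. Alternatives covered pseudocounts, filters, fold thresholds, scalings and interval levels.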

Additional observations from a re-analysis of the deposited data

How the results depend on the processing

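No paired analysis was possible because there was a single library on each side, and for the same reason no library could be left out. The TMM factors of edgeR and the binomial test with Benjamini-Hochberg adjustment were not run, since no count model was used; a trimmed mean in own code, chosen after the data were seen, took the place of the former. Of 79 values of single members under an alternative, 78 moved by no more than the counting error, and PHLDA1 moved from 0.19 to 0.33 relative to genes of like length. Some of the 78 still changed much in size. SPRED1 was -0.20 with a pseudocount of 5 CPM and -0.27 relative to genes of like length, against -0.40. DUSP6 was -0.08 relative to genes of like length, against -0.15. The median of the members lay between 0.11 and 0.20 over 8 alternatives. SPRED1 has no value with a mean of at least 10 CPM as the filter. At the lower of the other fold thresholds tried, 2 members were higher and 1 lower, against 0 and 0 at 1.5. The members with an interval below 0, 2 as deposited, were 0 with 99% intervals, with either rescaling and relative to genes of like length, and 1 relative to genes of like expression. Over all genes, 219 were at least 1.5-fold higher and 555 lower. They were 336 and 856 with a pseudocount of 0.1 CPM, 91 and 164 with 5 CPM, 135 and 223 with a mean of at least 10 CPM, 33 and 59 at 2-fold, and 1240 and 2532 at the lower threshold. The excess of lower genes was smaller with the other scalings, at 298 and 412 with a median of 0, 296 and 426 with the trimmed mean, 320 and 375 relative to genes of like expression, and 233 and 412 relative to genes of like length. Low genes lose most of their ratio when more CPM is added, and a stricter filter tests fewer genes. Either rescaling raised the log2 ratios by 0.05, and 51.6% or 51.0% of the called genes were then above 0, against 42.0%. The differences between related members, taken again only relative to genes of like length, moved by no more than the counting error. The medians of the other pathway lists were given no counting error of their own, so their shifts could not be set against one. Relative to genes of like length, the median of the receptors was -0.13, against -0.26. Relative to genes of like expression, that of the ligands was 0.36, against 0.23, and that of the kinase cascade 0.05, against 0.11. Medians near 0 moved by a large part of their size. Depth limits mainly SPRED1, and the missing replicates limit every comparison.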
